A study of Mus musculus with 2 samples.

Results

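Apolipoproteins are the protein parts of the particles that carry cholesterol and triglyceride through blood and lymph. The 10 genes described here are APOA1, APOA2, APOA4, APOB, APOC1, APOC2, APOC3, APOE, APOH and APOM. They were chosen by symbol, with results of these data known, and occupy 15 of the 62573 rows of the expression table. Rows with the same label were summed, which gave 9 loci, since APOC1 and APOE were deposited as 1 merged locus.

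The libraries came from 2 patient-derived xenografts, human gastroenteropancreatic neuroendocrine tumors kept growing in athymic nude mice of the strain Foxn1nu. The metastatic library was made from a metastatic neuroendocrine tumor carried in the peritoneal cavity. The primary library was made from a primary neuroendocrine tumor carried in the flank. The labels name no treatment for either, and do not state whether both tumors came from 1 patient, though both titles begin with the same code. Both were total RNA from pellets of tumor cells, after dissociation with a kit for mouse tumors. Athymic mice lack mature T cells but keep their own stroma, vessels and macrophages, and the handling of mouse reads is not stated in the sources at hand. Each group held 1 library, so no value below could be checked against a replicate or tested. Graft site and tumor origin differed together and cannot be told apart.

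In the body, the liver and the small intestine make most apolipoproteins. APOB forms the scaffold of chylomicrons and very low density lipoproteins, APOA1 and APOA2 form high density lipoproteins, and the small exchangeable proteins APOC1, APOC2, APOC3, APOA4 and APOE move between particles and steer lipases and receptors. APOE is also made by many other cells, macrophages among them. Hepatocyte nuclear factors are known to drive many of these genes in liver.

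Levels are FPKM, fragment numbers scaled by the length of the transcript and by the fragments mapped in all, which allows levels of different genes to be set side by side. Over all rows the values summed to 885319 in the metastatic and 784987 in the primary library. Among 6509 low rows (above 0 and under 1 FPKM in each library), 41.9% held values in a proportion of whole numbers up to 5, at a tolerance of 0.01%. Whether each column was divided by its own total is thus uncertain, and the read depth is unknown. Log2 ratios are metastatic over primary, computed as log2((metastatic + 1)/(primary + 1)) on FPKM. This scale understates differences of low genes.

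Every locus of the 10 genes with a value above 0 had a higher FPKM in the metastatic than in the primary library, 8 of 8. Of all 13811 entries of at least 1 FPKM, 51.8% were higher in the metastatic library, a set that leaves out APOA4, which is among the 8. Of the 10 genes, 7 were listed alone and 3 stood only in merged loci. Of the 7 listed alone, 5 reached 1 FPKM in a library. Of these 5, 4 were at least 2-fold higher in the metastatic library, where 9.22% of all entries were, and 0 were at least 2-fold lower, where 9.35% were. These 4, APOA1, APOA2, APOB and APOC3, reached 1 FPKM only in the metastatic library. The filter thus admitted them through their higher value. All 5 had their highest value between 1 and 20 FPKM, and of all 8343 entries in that range 7.95% were at least 2-fold higher. The median log2 ratio of the 5 was 1.27, against 0.03 over all entries. The genes were picked with this contrast in view, so these counts describe the set and support nothing further. Counted by locus with the merged ones included, 5 of 7 loci were at least 2-fold higher, with a median of 1.17.

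**Figure D1:**
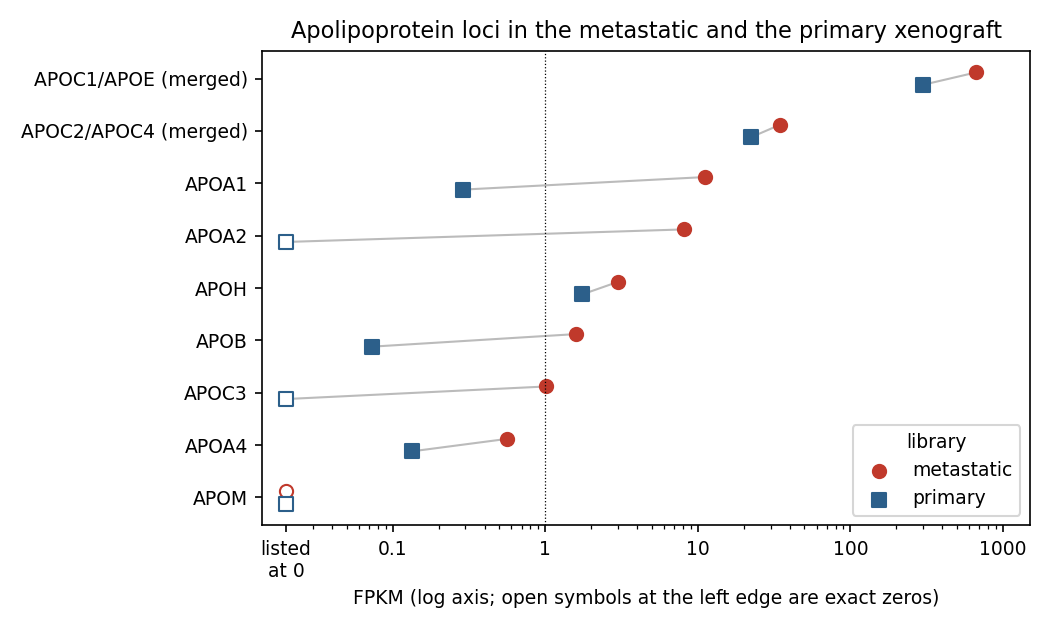
FPKM of the 9 apolipoprotein loci on a log axis, with the metastatic library as circles and the primary library as squares; open symbols at the left edge are exact zeros and the dotted line marks 1 FPKM. The APOC1/APOE locus lies highest in both, at 671 FPKM in the metastatic and 298 FPKM in the primary library, and APOA1 and APOA2 cross the dotted line between the libraries.

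Of the 9 loci, those of the high density lipoprotein genes APOA1 and APOA2 differed most. APOA1, the main protein of these particles and the activator of the plasma enzyme LCAT, stood at 11.2 FPKM in the metastatic and 0.289 FPKM in the primary library. The metastatic value was 38.9 times the primary value, and the log2 ratio with the pseudocount was 3.25. APOA2, the second protein of high density lipoproteins, stood at 8.16 FPKM in the metastatic library and was listed at 0 in the primary library. An exact 0 gives no fold, and it can be a failed estimate in this table. Both genes thus had a moderate level in the metastatic library and lay under 1 FPKM in the primary one. In order of log2 ratio, which for APOA2 rests on the pseudocount, APOA1 and APOA2 ranked 60 and 61 among 13811 entries, next to each other, and both exceeded a 4-fold difference, as did 1.19% of entries.

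APOM, a lipocalin that binds sphingosine 1-phosphate on high density lipoproteins, was listed at 0 in both libraries on each of its 7 rows. Of 1922 named genes whose label stood on 2 or more rows, 82.7% were at 0 in both libraries, against 34.5% of 25869 labels on 1 row. BAG6, a housekeeping gene that neighbours APOM in the major histocompatibility complex and also stood on 7 rows, had only 0.139 FPKM in the metastatic and 0.0697 FPKM in the primary library. Another neighbour, CSNK2B, merged with LY6G5B on 4 rows, did have a value, at 11.9 FPKM in the metastatic and 8.53 FPKM in the primary library. The zeros of APOM are therefore not read as absence of its RNA. APOA1, APOA2, APOB and APOC3 each stood on 1 row.

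APOB, APOC3 and APOA4 were low in both libraries. APOB, whose protein is the backbone of very low density lipoproteins and chylomicrons, stood at 1.58 FPKM in the metastatic and 0.0726 FPKM in the primary library. The ratio of these values was 21.7, and the log2 ratio with the pseudocount was 1.27. APOC3, an inhibitor of lipoprotein lipase, stood at 1.01 FPKM in the metastatic library and was listed at 0 in the primary library. It lies just past the filter of 1 FPKM and just past the 2-fold threshold, with a log2 value of 1.01 that the pseudocount sets. APOA4, a protein of intestinal chylomicrons, stayed under 1 FPKM, at 0.565 FPKM in the metastatic and 0.133 FPKM in the primary library. Its values had a ratio of 4.25, while its log2 ratio with the pseudocount was 0.47, within 2-fold.

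The primary values of APOB and APOA4 are very low, and their size in fragments can be bounded only loosely. Within 0.01%, the APOB values were in the ratio 87 to 4 and the APOA4 values in the ratio 17 to 4. If 1 fragment were worth the same FPKM in both columns, few fragments would lie behind the primary values, but the true number is unknown. The ratios 21.7 and 4.25 carry that uncertainty.

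APOE and APOC1 gave by far the highest level of the family. APOE is the ligand through which remnant particles bind receptors such as LRP1, and APOC1 slows that uptake. Their merged locus stood at 671 FPKM in the metastatic and 298 FPKM in the primary library, with a log2 ratio of 1.17. It ranked 192 by level in the metastatic library and 324 in the primary library. It held 91.8% of the summed apolipoprotein FPKM in the metastatic and 92.4% in the primary library. With both columns brought to the same sum, the metastatic value of this locus was 1.998 times the primary one, which places it just under the 2-fold threshold. On that scale 7.17% of entries passed 2-fold upward and 12.6% downward. How the merged value divides between APOE and APOC1 cannot be told from the table. The pseudogene APOC1P1, a copy of APOC1 listed apart, stood at 24.7 FPKM in the metastatic and 16.3 FPKM in the primary library. Values of such copies are uncertain where reads match both.

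APOC2, the cofactor that lipoprotein lipase needs, was merged with its neighbour APOC4 and the readthrough transcript APOC4-APOC2. The locus stood at 34.7 FPKM in the metastatic and 22.3 FPKM in the primary library, with a log2 ratio of 0.61, within 2-fold. APOH, or beta-2-glycoprotein I, a plasma protein that binds phospholipid and is secreted by liver, stood at 3.01 FPKM in the metastatic and 1.75 FPKM in the primary library. Its log2 ratio was 0.54, also within 2-fold. The 5 entries nearest to APOH in both levels at once, by Euclidean distance on log2(FPKM + 1), were FAM111B, SMIM10L1, HBEGF, GALNT6 and RASSF9, at distances of 0.00386 to 0.0390. With only 2 libraries such nearness says only that their levels were alike.

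Summed over the 9 loci, apolipoprotein FPKM was 731 in the metastatic and 322 in the primary library. Without the 2 merged loci the sums were 25.6 FPKM in the metastatic and 2.25 FPKM in the primary library, a ratio of 11.4 against 2.27 with them. The family thus had an abundant part, APOE with APOC1 and APOC2, that differed by about the threshold or less. In the scarce part APOA1 and APOA2 differed more, at log2 ratios of 3.25 and 3.19 with the pseudocount. On that scale APOB, at 1.27, was close to the 1.17 of APOC1/APOE. APOC3 at 1.01, APOH at 0.54 and APOA4 at 0.47 lay below it.

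**Figure D2:**
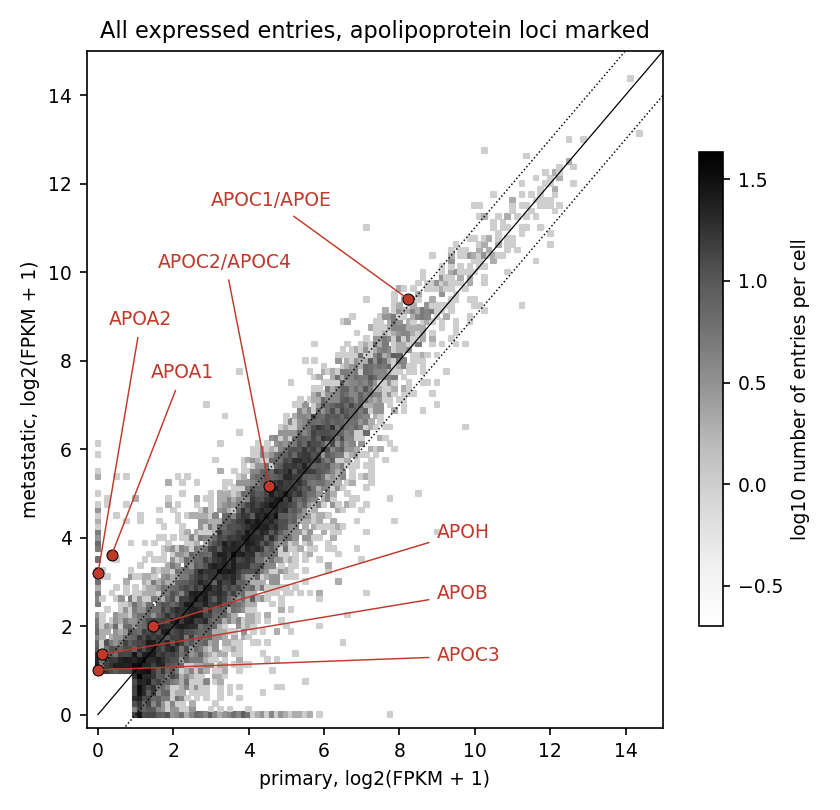
Levels of the 13811 entries in the metastatic library (vertical axis) against the primary library (horizontal axis), both as log2(FPKM + 1), with grey cells shaded by the number of entries and the 7 apolipoprotein loci of at least 1 FPKM in red; the solid line is equality and the dotted lines are 2-fold. APOA1, at a log2 ratio of 3.25, and APOA2, listed at 0 in the primary library, lie far above the upper dotted line, and APOH and APOC2/APOC4 lie between the lines.

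Several of these genes lie side by side in the human genome. APOA1, APOC3, APOA4 and APOA5 form a cluster on chromosome arm 11q, and APOE, APOC1, APOC4 and APOC2 form another on 19q, as background knowledge, since the table holds no coordinates. In the 11q cluster, APOA5, a protein that promotes lipolysis, went the other way from its neighbours, at 0.0248 FPKM in the metastatic and 0.130 FPKM in the primary library, under 1 FPKM in both. Of 7 genes that flank this cluster, 6 were within 2-fold, 0 were higher and 1 was lower. The lower one was the kinase gene SIK3, which lies next to APOA1, at 4.76 FPKM in the metastatic and 13.7 FPKM in the primary library. None of the 7 flanking genes shared the direction of APOA1 past 2-fold.

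The 19q cluster gave another picture. TOMM40, which encodes the mitochondrial import channel and lies beside APOE, stood at 90.7 FPKM in the metastatic and 40.9 FPKM in the primary library, a log2 ratio of 1.13 close to the 1.17 of APOC1/APOE. CLPTM1 stood at 87.6 FPKM in the metastatic and 55.8 FPKM in the primary library, close in log2 ratio, at 0.64, to the 0.61 of the APOC2 locus. BCAM, a laminin receptor further out, went the other way, at 8.81 FPKM in the metastatic and 35.2 FPKM in the primary library. Of the 5 flanking genes, 1 was at least 2-fold higher, 1 lower and 3 within 2-fold. Among the last were NECTIN2, at a log2 ratio of 0.05, and RELB, at 0.28. Any link between these neighbours and the apolipoprotein loci was not tested. With columns scaled to the same sum, the log2 ratio of TOMM40 was 0.96, just under 2-fold like that of APOC1/APOE.

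**Figure D3:**
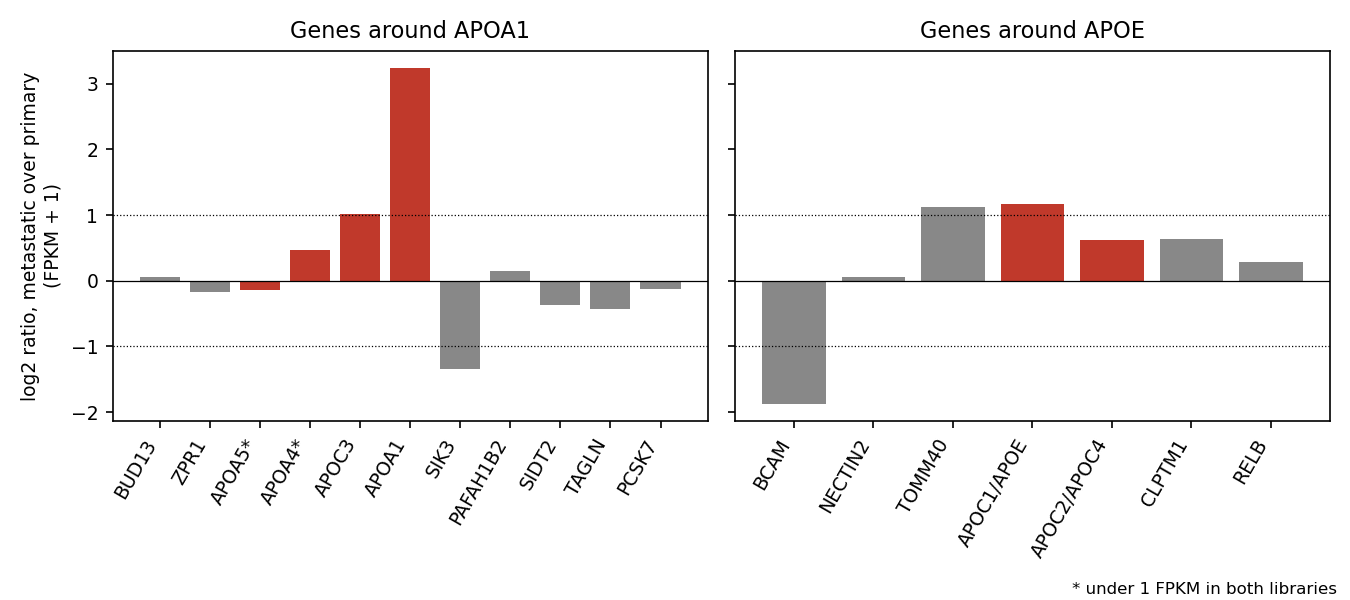
Log2 ratio, metastatic over primary on FPKM + 1, of genes in their order around APOA1 (left) and around APOE (right), with apolipoprotein loci in red, other genes in grey and dotted lines at 2-fold; asterisks mark genes under 1 FPKM in both libraries. Around APOA1 the bars of the flanking genes lie between the lines except SIK3 at -1.35, while around APOE the bar of TOMM40, at 1.13, is nearly as tall as that of APOC1/APOE.

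Of 13 lipoprotein assembly genes listed alone, 9 were expressed and 4 were under 1 FPKM in both libraries. SURF4, CIDEB and DGAT1, each on 2 rows, were among these 4 and listed at 0. Of the 9 expressed 0 were at least 2-fold higher or lower, with a median log2 ratio of 0.29. MTTP, the transfer protein that loads lipid onto APOB, stood at 7.71 FPKM in the metastatic and 10.5 FPKM in the primary library. Its partner subunit P4HB, protein disulfide isomerase, stood at 522 FPKM in the metastatic and 348 FPKM in the primary library. MIA3, which helps bulky cargo such as chylomicrons leave the endoplasmic reticulum, had the largest ratio of this list, 0.88. The MTTP level thus exceeded that of APOB in both libraries. The editing enzyme that shortens APOB in intestine, APOBEC1, was listed at 0 in both libraries, while its cofactor A1CF stood at 50.8 FPKM in the metastatic and 63.0 FPKM in the primary library. Of the 2 expressed editing factors 0 passed 2-fold, with a median of -0.36.

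Of 7 expressed genes that act on lipoproteins in plasma, 2 passed 2-fold upward and 1 downward, and the median log2 ratio was -0.13. PLTP, the phospholipid transfer protein, stood at 183 FPKM in the metastatic and 89.5 FPKM in the primary library. The endothelial lipase LIPG stood at 9.77 FPKM in the metastatic and 4.30 FPKM in the primary library. Both had log2 ratios of 1.02, barely over the threshold. With columns scaled to the same sum these ratios were 0.85 for PLTP and 0.89 for LIPG, under it. The paraoxonase PON3, carried on high density lipoproteins, was lower, at 1.83 FPKM in the metastatic and 7.36 FPKM in the primary library.

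Lipoprotein receptors went in both directions. Of 13 expressed receptor genes and partners, 3 were at least 2-fold higher, 4 lower and 6 within 2-fold. Their median log2 ratio was -0.40. With columns scaled to the same sum 1 was higher in place of 3, since SCARB1 stood at a log2 ratio of 0.94 and LRPAP1, a chaperone of these receptors, at 0.85. SCARB1, the receptor for high density lipoproteins, stood at 118 FPKM in the metastatic and 54.1 FPKM in the primary library. LRP8, known as apolipoprotein E receptor 2, stood at 21.8 FPKM in the metastatic and 6.41 FPKM in the primary library. Among those lower, VLDLR stood at 2.03 FPKM in the metastatic and 12.1 FPKM in the primary library. LRP1, a large endocytic receptor for APOE, stood at 38.2 FPKM in the metastatic and 98.2 FPKM in the primary library. The sorting receptor SORL1, which also binds APOE, was nearly at 0 in the metastatic library, at 0.0224 FPKM, against 8.84 FPKM in the primary library. Receptors that bind APOE were thus among both the higher and the lower genes.

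Cholesterol efflux genes had a median log2 ratio of -0.09, with 0 of 6 at least 2-fold higher. ABCA1, the transporter that hands cholesterol to APOA1, was under 1 FPKM in both libraries, at 0.289 FPKM in the metastatic and 0.359 FPKM in the primary library. NR1H3, the LXR alpha receptor that can drive APOE, stood at 99.05 FPKM in the metastatic and 152 FPKM in the primary library, within 2-fold. MYLIP, an LXR target that degrades lipoprotein receptors, was the 1 of 6 expressed genes of this list past 2-fold, at 5.02 FPKM in the metastatic and 12.9 FPKM in the primary library.

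Of 23 expressed transcription factors of liver and intestine, 19 were within 2-fold, 2 higher and 2 lower, and the median log2 ratio was -0.03. HNF4A, a main activator of APOA1, APOB and APOC3 in liver, stood at 13.2 FPKM in the metastatic and 13.4 FPKM in the primary library. With columns scaled to the same sum 3 were lower in place of 2. The 2 higher factors were CREB3L3, a membrane-bound factor that activates apolipoprotein genes in mouse liver, and NR0B2, a repressor induced by bile acids. CREB3L3 stood at 5.18 FPKM in the metastatic and 0.851 FPKM in the primary library. NR0B2 stood at 29.4 FPKM in the metastatic and 8.67 FPKM in the primary library. The lower ones were PPARG, at 14.5 FPKM in the metastatic and 46.4 FPKM in the primary library, and CDX2, at 3.42 FPKM in the metastatic and 8.30 FPKM in the primary library. HNF4A was thus within 2-fold between the libraries.

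**Figure D4:**
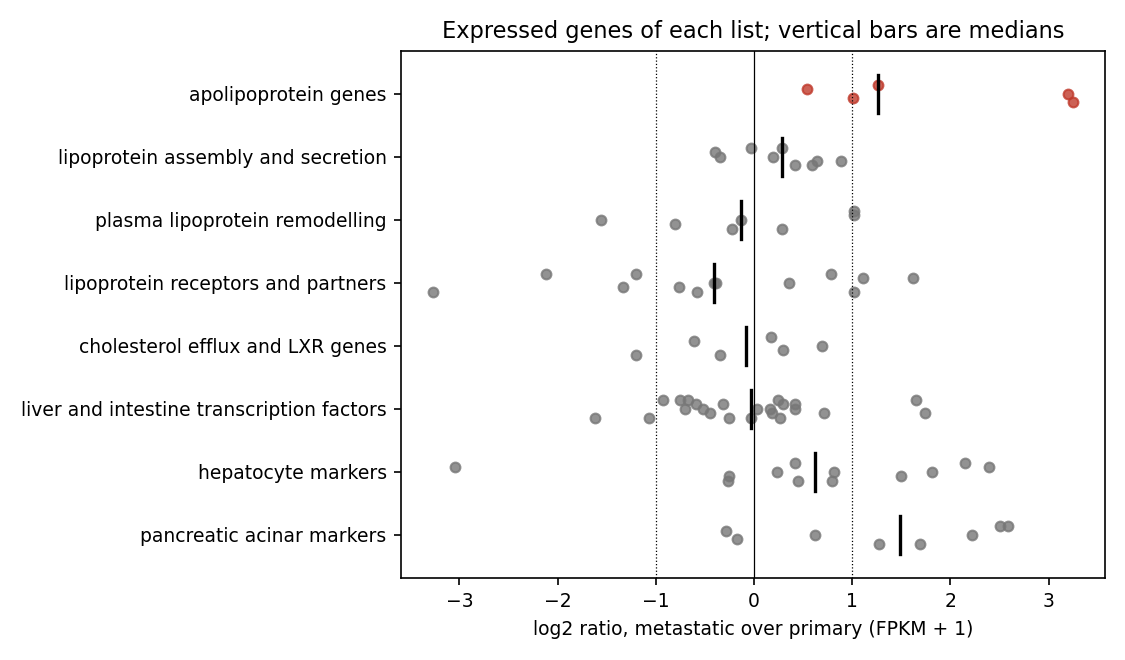
Log2 ratios, metastatic over primary on FPKM + 1, of the expressed genes listed alone in each list, 1 point per gene, with the median as a vertical bar and dotted lines at 2-fold; apolipoprotein genes are red. The apolipoprotein genes have a median of 1.27 and the transcription factors a median of -0.03.

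Hepatocytes make apolipoproteins, and their markers went in both directions. Any link of these markers to the apolipoprotein values was not tested. Among all entries, 9.22% passed 2-fold upward and 9.35% downward. In the metastatic library 4 of 12 expressed hepatocyte markers listed alone were higher by 2-fold or more and 1 was lower. Their median log2 ratio was 0.62, and the 18 listed alone summed to 1772 FPKM in the metastatic and 903 FPKM in the primary library. ALB, encoding albumin, stood at 34.1 FPKM in the metastatic and 19.0 FPKM in the primary library, so APOA1 was the lower of the pair in both. HPX, encoding the heme carrier hemopexin, resembled APOA1 in direction, at 5.83 FPKM in the metastatic and 0.296 FPKM in the primary library. The fibrinogen genes were the other 3 past 2-fold upward. FGB, for the beta chain, stood at 499 FPKM in the metastatic and 111 FPKM in the primary library. FGA stood at 201 FPKM in the metastatic and 56.2 FPKM in the primary library, and FGG at 266 FPKM in the metastatic and 93.8 FPKM in the primary library. AMBP and SERPINA1, for abundant plasma proteins, were high and within 2-fold, AMBP at 568 FPKM in the metastatic and 425 FPKM in the primary library and SERPINA1 at 162 FPKM in the metastatic and 137 FPKM in the primary library. Other markers stayed under 1 FPKM in both libraries, among them TTR at 0.947 FPKM in the metastatic and 0.135 FPKM in the primary library and AHSG at 0.0312 FPKM in the metastatic library and at 0 in the primary one. CPS1, the first enzyme of the urea cycle, was lower, at 2.96 FPKM in the metastatic and 31.7 FPKM in the primary library. In bulk tissue fewer cells of a type and less RNA per cell cannot be told apart.

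Of 12 enterocyte markers 3 were expressed, of which 1 was at least 2-fold higher and 0 lower, and the list summed to 223 FPKM in the metastatic and 210.1 FPKM in the primary library. FABP1, a fatty acid binding protein of liver and intestine, stood at 25.7 FPKM in the metastatic and 2.68 FPKM in the primary library. Most of these sums came from VIL1 and ANPEP, both within 2-fold and in opposite directions. VIL1 stood at 55.6 FPKM in the metastatic and 30.3 FPKM in the primary library, and ANPEP at 141 FPKM in the metastatic and 176 FPKM in the primary library. The defining enterocyte genes FABP2, SI and LCT were listed at 0 in both. Of 11 macrophage markers listed alone 2 were expressed, 1 past 2-fold upward and 0 downward, and the list summed to 13.6 FPKM in the metastatic and 6.25 FPKM in the primary library, to which the lysozyme gene LYZ gave 11.97 FPKM in the metastatic and 2.72 FPKM in the primary library. C1QA and C1QC were listed at 0 in the metastatic library, and C1QB stood at 0.326 FPKM in the metastatic and 0.490 FPKM in the primary library. CSF1R, the receptor for a macrophage growth factor, stood at 0.243 FPKM in the metastatic and 1.06 FPKM in the primary library, within 2-fold on the log2(FPKM + 1) scale. CD163 stood only in a locus merged with CD163L1, at 8.19 FPKM in the metastatic and 68.3 FPKM in the primary library, a log2 ratio of -2.91. CD68 stood only in a locus merged with EIF4A1 and SENP3, at 996 FPKM in the metastatic and 869.7 FPKM in the primary library. Adipocyte markers, with 1 of 7 expressed and 0 past 2-fold, summed to 3.88 FPKM in the metastatic and 3.69 FPKM in the primary library, and mesothelial markers, with 2 of 6 expressed, 1 higher and 1 lower, to 2.86 FPKM in the metastatic and 1.92 FPKM in the primary library.

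Of 8 expressed pancreatic acinar markers listed alone, 5 were at least 2-fold higher in the metastatic library, as were 9.22% of all entries. At least 2-fold lower were 0 of them, against 9.35% of all entries, while CTRB1 and CTRC were lower within 2-fold. The markers listed alone summed to 7926 FPKM in the metastatic and 1484 FPKM in the primary library. SPINK1, encoding a trypsin inhibitor, gave most of these sums, with 6825 FPKM in the metastatic and 1198 FPKM in the primary library. The enzyme genes PRSS1, CPB1, CEL and AMY2A were under 1 FPKM or at 0 in both. The label of both tumors is neuroendocrine, and of 10 neuroendocrine markers listed alone 5 were expressed, 1 at least 2-fold higher and 2 lower (3 when scaled to the same sum). Their median log2 ratio was -0.98. The lower ones were INSM1, a transcription factor, at 0.271 FPKM in the metastatic and 3.54 FPKM in the primary library, and the granin SCG2, at 0.340 FPKM in the metastatic and 2.62 FPKM in the primary library. CHGB had a log2 ratio of -0.98. Of the 3 markers that stood only in merged loci, ENO2, merged with LRRC23, was lower, at 23.8 FPKM in the metastatic and 81.6 FPKM in the primary library. SSTR2, merged with COG1, was higher within 2-fold, at 34.3 FPKM in the metastatic and 21.9 FPKM in the primary library. NEUROD1, merged with CERKL, was under 1 FPKM in both. CHGA was listed at 0 in both libraries on 2 rows, and SYP stood at 1.96 FPKM in the metastatic and 1.63 FPKM in the primary library, while UCHL1 stood at 705 FPKM in the metastatic and 225 FPKM in the primary library. The part of any of these cell types in the apolipoprotein values was not tested.

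**Figure D5:**
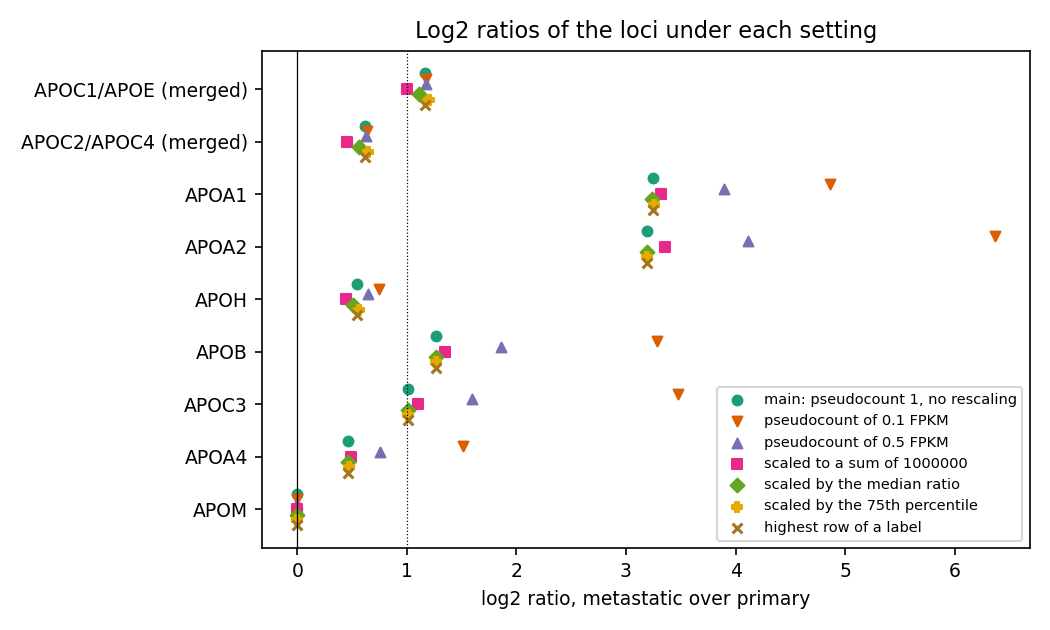
Log2 ratio, metastatic over primary, of each apolipoprotein locus under the pseudocount of 1 FPKM without rescaling and under 6 other settings, marked by symbol, with a dotted line at 2-fold. Loci with a value above 0 stay right of 0, which none of the settings shown could have changed. The values of APOA2 and APOC3, listed at 0 in the primary library, move with the pseudocount. APOC1/APOE meets the dotted line when columns are scaled to the same sum.

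The settings plotted for each locus moved the size of the log2 ratios. The direction was fixed in advance, since a pseudocount or the choice of row could not reverse it here. The largest rescaling raised the primary column 1.13-fold relative to the metastatic one, less than the smallest ratio, 1.55 for the APOC2 locus. Log2 ratios of APOA1 ran from 3.23 to 4.87 and those of APOB from 1.26 to 3.28, with the highest values at a pseudocount of 0.1 FPKM. Those of APOH ran from 0.45 to 0.75 and those of the APOC2 locus from 0.45 to 0.65, within 2-fold under each setting shown. APOA4 passed 2-fold at a pseudocount of 0.1 FPKM, with a log2 ratio of 1.51.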

How the data were processed

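Gene expression was analysed as the FPKM values deposited by the authors, 1 column per library. Cufflinks 2.2.1, STAR 2.7.6a, bcl2fastq 2.18.0.12 and the build GRCh38 are named, without their roles, per the submitters' processing notes. How mouse sequence was treated, and with which annotation and filters, is not given in the sources used here. Mouse is the organism per the labels. The table holds no counts, so no counting interval is given.

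Rows with the same label were summed with pandas 2.3.3 in Python 3.11.15. Merged loci were given to a gene only where the other symbols were clones, short RNAs or antisense RNAs. Other merged loci were kept as entries of their own. The filter was 1 FPKM in a library, the pseudocount 1 FPKM and the threshold 2-fold. Since each group held 1 library, no test was run.

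The members and the 16 other gene lists were chosen with earlier results of these data known. All members were named, and of each list up to 4 genes with the largest absolute log2 ratio plus fixed genes such as MTTP and HNF4A. Some genes that this rule takes are not reported here. BAG6, CSNK2B, APOC1P1, markers in merged loci, the APOL genes and markers at or near 0 were named after their values were seen. Alternatives were other pseudocounts, filters, scalings and thresholds, the highest row of a label, and merged loci counted for each symbol.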

Additional observations from a re-analysis of the deposited data

How the results depend on the processing

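The count of 4 apolipoprotein genes at least 2-fold higher was also 4 with pseudocounts of 0.1 and 0.5 FPKM, without a filter, under each of 3 scalings and with the highest row of a label. It was 6 of 8 with merged loci counted for each symbol, where the single value of APOC1/APOE counts for 2 of the 6. It was 2 with a filter of 5 FPKM, which left 2 of the genes, and 2 at a 4-fold threshold. The count of genes at least 2-fold lower was 0 under each alternative, and could not rise, since none of them could reverse the direction of a locus. The median log2 ratio, 1.27, was 3.48 and 1.86 with pseudocounts of 0.1 and 0.5 FPKM and 3.22 with a filter of 5 FPKM, since the median genes lay at or near 0 in the primary library or the low genes were left out. It ran from 1.01 to 1.35 under the other alternatives. Of 54 values of single loci under other settings, 52 kept their side of the 2-fold threshold, though some of them could not move. APOM was at 0 in both libraries, and the highest row equals the sum for a locus on 1 row. The values that crossed the threshold were APOA4 with a pseudocount of 0.1 FPKM, at 1.51, and APOC1/APOE scaled to a sum of 1000000, at 0.997. That scaling moved the median log2 ratio of all entries to -0.13 and the entries at least 2-fold higher to 7.17%, with 12.6% lower. No replicate could be left out, because each group held 1 library. No paired analysis was possible because each group held 1 library. The read depth behind the low values of APOA1, APOA2, APOA4, APOB and APOC3 is unknown.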

Other observations

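Apolipoprotein L genes, a separate family on chromosome arm 22q that is known to respond to interferon, lay in the other direction. Of 6 APOL genes, 5 had a lower FPKM in the metastatic than in the primary library and 1, APOL5, was listed at 0 in both. APOL1, which encodes the factor of human serum that kills trypanosomes, stood at 0.618 FPKM in the metastatic and 2.47 FPKM in the primary library. APOL2 stood at 8.74 FPKM in the metastatic and 15.3 FPKM in the primary library. APOL3, APOL4 and APOL6 were under 1 FPKM in both libraries. These genes were chosen after their values were seen, and only APOL1 passed 2-fold on the log2(FPKM + 1) scale, at -1.10.

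The list of other apolipoprotein genes had 5 expressed genes listed alone, APOL1 and APOL2 again among them. Of these 5, 1 passed 2-fold upward, APOO, and 1 downward, the same APOL1, and the median log2 ratio was -0.04. APOO, which despite its name encodes a subunit of the mitochondrial cristae organising complex, stood at 113 FPKM in the metastatic and 46.6 FPKM in the primary library. Its relative APOOL stood at 6.61 FPKM in the metastatic and 6.84 FPKM in the primary library. CLU, which encodes clusterin or apolipoprotein J, was abundant and alike in both tumors, at 462 FPKM in the metastatic and 426 FPKM in the primary library.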
